A study of Mus musculus with 24 samples.

Results

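Granulosa cells of mouse ovarian follicles cultured with dextran were compared with granulosa cells of follicles cultured without it. Dextran is a polysaccharide that raises the osmotic pressure of the medium and so compresses the follicle. The comparison takes 8 of the 24 RNA sequencing libraries of the series, chosen by their labels, and covers every gene that could be tested. The dextran group holds 4 libraries from wild-type (WT) follicles in medium with dextran at 10 kPa, and the control group holds 4 libraries from WT follicles in the same medium with no agent added. All follicles were enclosed in alginate, a gel, and harvested on day 3. Their medium was MEM-α with 10% fetal bovine serum, insulin, transferrin and selenium, and FSH at 50 mIU/ml. The controls were therefore also stimulated with FSH and also held in a gel. In each condition only follicles past 180 µm were taken, so a follicle that stayed small under dextran is not represented. They were split mechanically into oocyte and granulosa cells within minutes, and many granulosa cells were pooled per library. The labels give neither the strain and age of the mice nor the size of the dextran. They call the replicates biological without saying whether animals or cultures differed, so p-values speak of library-to-library spread, which may be technical in part. A further 4 granulosa cell libraries, from follicles with blebbistatin at 20 µM, a blocker of myosin II, entered the same statistical model so that the spread was estimated over 12 libraries. Standard errors and p-values of that model therefore also carry the spread of the blebbistatin libraries, which was the wider.

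Granulosa cells enclose the oocyte in layers, feed it through gap junctions, divide in response to FSH and make inhibins, activins and estrogen. Ligands of the BMP, activin and anti-Müllerian hormone family pass between oocyte and granulosa cells and act through receptor kinases that activate SMAD proteins. SMADs of the BMP branch switch on the Id genes and the inhibitory Smad6 and Smad7. Pressure and stretch are sensed at integrin adhesions, by small GTPases that set actomyosin tension, and by the transcriptional cofactors YAP and TAZ.

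The labelled cell type was checked against Inha, Fshr, Amh and Foxl2, which mark granulosa cells. Inha, the inhibin alpha subunit, was at 17318, 14121, 13171 and 14787 CPM (counts scaled to a common library size, not corrected for gene length) in dextran libraries, against 16070, 15666, 18206 and 16453 CPM in control libraries. The 4 markers were detected in all 8 libraries, and their summed level was 13250 to 17770 CPM in dextran libraries, against 16056 to 18408 CPM in control libraries. Markers of other cell types were present at lower sums, and in each of 7 lists the groups overlapped. The sums were 12.4 to 25.2 CPM in dextran libraries and 13.9 to 39.9 CPM in control libraries for 19 oocyte genes, with the oocyte regulator Figla at 0 in all 8. In the same list Tle6 was at 1.93 to 17.5 CPM in dextran libraries and 4.70 to 36.3 CPM in control libraries. For 18 genes of theca, stroma and smooth muscle the sums were 63.0 to 435 CPM in dextran libraries and 58.2 to 450 CPM in control libraries. The theca hormone Insl3 was at 0 in all 8, but stromal genes were present unevenly. Col1a1 was at 84.8, 52.9, 0 and 0 CPM in dextran libraries, against 94.0, 2.98, 5.75 and 78.4 CPM in control libraries. For 14 immune cell genes the sums were 4.43 to 6.96 CPM in dextran libraries and 3.83 to 15.1 CPM in control libraries. The macrophage gene Adgre1 and the T cell gene Cd3e were at 0 in all 8. Cd14 was at 1.59 to 4.42 CPM in dextran libraries and 2.04 to 3.72 CPM in control libraries. Endothelial genes summed to 7.79 to 23.1 CPM in dextran libraries and 15.2 to 32.4 CPM in control libraries. Flt1 and Cldn5 were at 0 in all 8, while Egfl7 was at 3.62 to 14.6 CPM in dextran libraries and 11.4 to 18.4 CPM in control libraries. The genes at 0 thus do not speak for their whole lists. The 11 luteal genes had the largest sums of the 7 lists, at 482 to 4135 CPM in dextran libraries and 1046 to 4204 CPM in control libraries. Among them Hsd3b1 was at 276 to 3599 CPM in dextran libraries and 742 to 3594 CPM in control libraries. The lists for surface epithelium and red blood cells are drawn in the plot of marker sums. In these pooled samples, fewer cells of a type and less RNA per cell cannot be told apart.

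**Figure D1:**
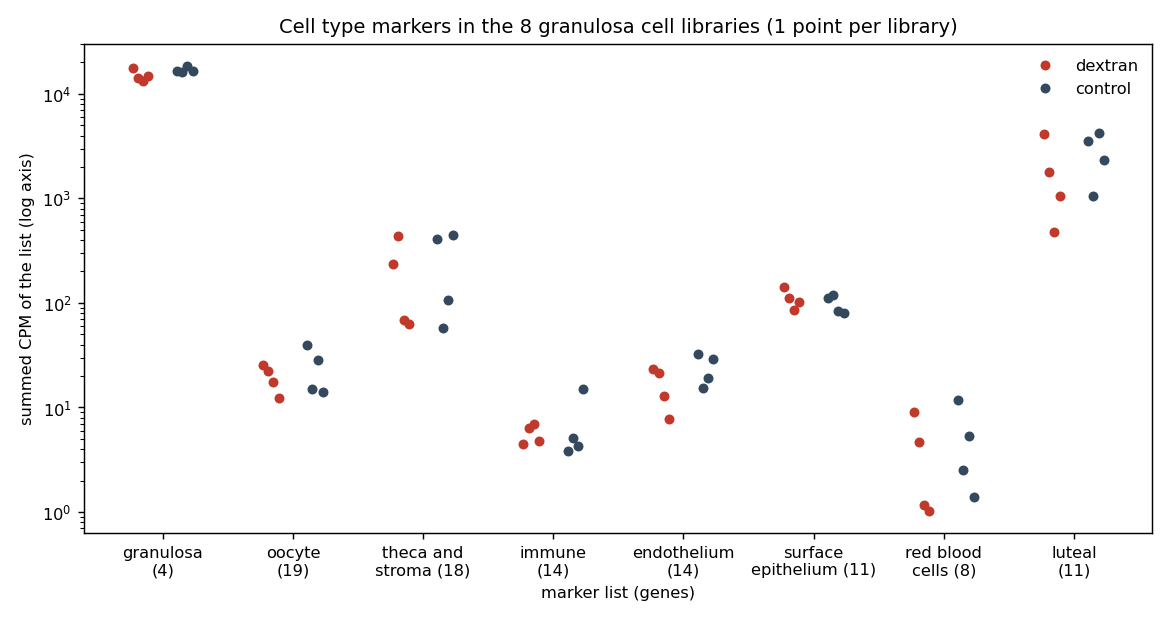
Summed level of each cell type marker list in CPM (vertical log axis) for the 4 dextran libraries (red, left) and the 4 control libraries (dark, right) of granulosa cells, 1 point per library, with the number of genes per list under its name. The granulosa sums sit between 13250 and 18408 CPM in both groups, and the 2 groups overlap in every list.

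The 4 dextran libraries held 18789221 to 21100884 counts and the 4 control libraries 16432298 to 22431013. Dextran libraries had 21532 to 22427 genes with a count, against 20673 to 24230 in control libraries, and 3.41 to 4.82% mitochondrial counts, against 2.60 to 4.52% in control libraries. Of 15370 genes tested, 0 (0%) passed an adjusted p of 0.05 in edgeR's quasi-likelihood test, and 0 passed in limma voom. At an unadjusted p under 0.05 there were 523 genes (3.4%), of which 365 (2.37%) were higher and 158 (1.03%) lower under dextran. DESeq2 called 42 of the 11739 genes to which it gave an adjusted p (0.358%), 34 of them higher (0.29%) and 8 lower (0.0681%), among them all 12 of the higher and 4 of the 12 lower genes named here. The named genes were picked from the same counts, so their DESeq2 calls are not separate evidence. The smallest DESeq2 p belonged to Hoxc10, whose groups overlapped at a DESeq2 log2 change of 24.9. The 4 dextran and 4 control libraries did not overlap for 724 genes (4.71%), 411 higher (2.67%) and 313 lower (2.04%). Counts of list members given below are to be read beside these shares over all genes. Members of a list can move together between libraries, so they are not separate pieces of evidence. Log2 changes were above 0 for 7606 genes (49.5%) and below 0 for 7764 (50.5%), and their median over all genes was −0.0037. No gene below is therefore called changed by edgeR, and every log2 change given is dextran minus control, with its standard error (SE). The text names the 12 genes in each direction with the smallest p among those whose groups did not overlap, members of gene lists, and a set of granulosa cell and mechanical anchor genes.

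**Figure D2:**
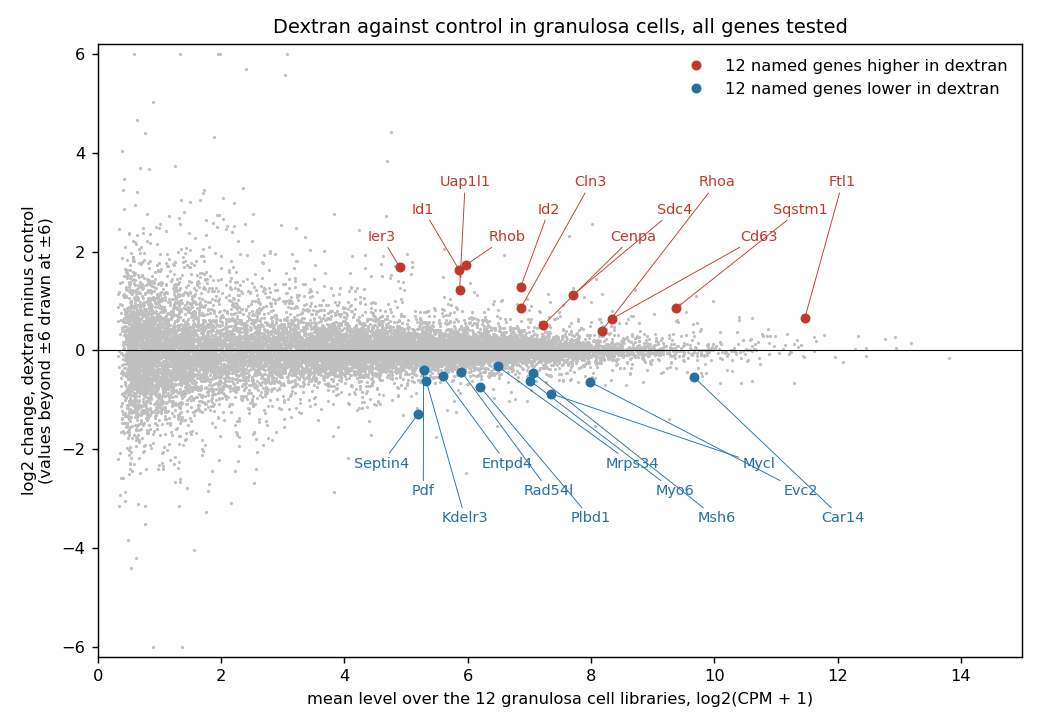
Log2 change (dextran minus control, vertical) against mean level over 12 granulosa cell libraries (log2(CPM + 1), horizontal) for the 15370 genes tested, 1 grey point each. The 12 named higher genes (red) lie above 0 at log2 changes of 0.40 to 1.73, and the 12 named lower genes (blue) lie between −1.28 and −0.32, and none passed the adjusted threshold.

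Id1 and Id2 had the 2 smallest p-values of all genes tested. The Id genes encode helix-loop-helix proteins without a DNA-binding region, which hold other transcription factors inactive, and BMP signalling induces them. Id1 was at 54.3, 90.5, 72.9 and 96.7 CPM in dextran libraries, against 24.8, 24.1, 26.9 and 26.1 CPM in control libraries. Every dextran library lay above every control, and the controls lay within a narrow band (25.5 ± 1.24 CPM, SD, n = 4). The log2 change of Id1 was 1.63 ± 0.25 (SE), a 3.09-fold difference, with an edgeR adjusted p of 0.174. With only the 8 libraries of these groups in the fit, Id1 was the 1 gene of 14847 tested (0.00674%) to pass, at an edgeR adjusted p of 0.0422. In that fit the call was lost with a replicate block (edgeR adjusted p = 0.141) and without any 1 of control replicates 1, 2 and 3 or dextran replicates 2, 3 and 4. With 1 library left out, the edgeR adjusted p of Id1 in the 8-library fit ran from 0.00344 to 0.266. Across 21 alternatives the adjusted p of Id1 lay between 1.6e-05 and 0.954, and the log2 change between 1.51 and 1.77. Id2 was at 166, 151, 157 and 146 CPM in dextran libraries, against 47.0, 50.4, 79.0 and 78.4 CPM in control libraries. Its groups did not overlap either, and its log2 change was 1.28 ± 0.20. Id3 was at 929, 976, 1091 and 1051 CPM in dextran libraries, against 772, 718, 740 and 838 CPM in control libraries. The gap between groups was smaller for Id3, with a log2 change of 0.40 ± 0.11 (edgeR adjusted p = 0.973), again without overlap. Id4 was low in every library, at 0.110 to 1.13 CPM in dextran libraries and 0.362 to 0.747 CPM in control libraries.

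The sequences just upstream of Id2 and Id3 are printed because both genes are textbook targets of BMP SMADs, which bind GC-rich sites such as GGCGCC. Both come from RefSeq on build GRCm38.p6 and cover the 250 bases before the annotated start, 5′ to 3′ on the gene's strand. They are chr12:25096093-25096342 on the minus strand for Id2 and chr4:136143572-136143821 on the plus strand for Id3, and capitals mark GGCGCC.
Id2: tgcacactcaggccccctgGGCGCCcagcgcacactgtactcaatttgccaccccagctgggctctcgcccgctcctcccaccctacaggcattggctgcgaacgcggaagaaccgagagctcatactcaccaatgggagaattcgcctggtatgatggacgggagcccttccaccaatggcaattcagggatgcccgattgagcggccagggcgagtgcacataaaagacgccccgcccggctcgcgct
Id3: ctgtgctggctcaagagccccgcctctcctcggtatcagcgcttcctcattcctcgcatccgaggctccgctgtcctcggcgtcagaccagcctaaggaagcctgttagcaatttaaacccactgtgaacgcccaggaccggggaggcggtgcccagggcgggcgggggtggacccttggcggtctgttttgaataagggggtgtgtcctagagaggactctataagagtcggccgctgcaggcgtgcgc
Id2 holds 1 match, 231 bases before its start, and Id3 holds 0 in this window. The letters occur in 3149 of 32851 promoters of the same length (9.59%). GGCGCC reads the same on both strands, so a match counts for both. Id1 and Uap1l1 have no entry in the promoter table, so their promoters were not searched. Of the 12 named higher genes, 10 are in that table with 12 starts, and 1 of these genes (Id2) holds GGCGCC. The AP-1 letters TGANTCA occur in 6.75% of promoters and in 0 of these 10 genes.

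The list of SMAD signalling targets holds the Id genes and others. Of 21 tested, the Id genes included, 17 had a log2 change above 0 and 4 below, with a median of 0.47. At an unadjusted p under 0.05 there were 8, all higher, beside 2.37% higher over all genes. The groups did not overlap for 7, all higher, beside 2.67% over all genes. Dextran replicate 1 was the lowest dextran library for 11 of the 21 and dextran replicate 3 the highest for 9. Tgfbi, a secreted matrix protein named for its induction by TGF-beta, was at 6.73, 23.6, 6.40 and 8.16 CPM in dextran libraries, against 1.17, 3.44, 0.742 and 2.34 CPM in control libraries. Its log2 change of 2.54 ± 0.69 was the largest of the 21, with dextran replicate 2 far above the other 3. Smad7, an inhibitory SMAD that switches receptors off, was at 24.7, 23.5, 24.1 and 34.5 CPM in dextran libraries, against 15.4, 14.3, 12.8 and 20.0 CPM in control libraries. The groups did not overlap, and the log2 change was 0.77 ± 0.36. For Smad6, the inhibitory SMAD of the BMP branch, the log2 change was 1.00 ± 0.44, and 1 dextran library (7.06 CPM) lay below the highest control (7.62 CPM). Atoh8, a transcription factor that BMP induces in other cells, ran from 17.2 to 31.7 CPM in dextran libraries and from 4.25 to 15.3 CPM in control libraries. Bambi, a decoy receptor, and Hey1, a target shared with Notch, had log2 changes of −0.35 ± 0.40 and −0.42 ± 0.48.

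The ligands that start this signalling did not follow one direction. Of 27 tested ligands, receptors and SMADs, 17 had a log2 change above 0 and 10 below, with a median of 0.06 that ran from −0.0031 (without control replicate 3) to 0.13 (without dextran replicate 2). At an unadjusted p under 0.05 there were 3, all lower, beside 1.03% lower over all genes. Inhbb, the beta B subunit of activin and inhibin, was at 248, 249, 59.4 and 162 CPM in dextran libraries, against 805, 361, 727 and 194 CPM in control libraries. Control replicate 4 lay within the dextran range, so the groups overlapped, and the log2 change was −1.54 ± 0.47. Inhba, the beta A subunit, was at 473, 747, 212 and 331 CPM in dextran libraries, against 1383, 344, 2537 and 321 CPM in control libraries. Control replicates 1 and 3 stood far above the other controls, and the log2 change of −1.38 ± 0.62 carries that spread. Bmp3, a ligand that opposes other BMPs in bone, had a log2 change of −0.83 ± 0.36 and Bmp2 one of 1.51 ± 1.12. Bmp2 was at 15.8 to 65.6 CPM in dextran libraries, while control libraries read 0.561, 1.09, 5.15 and 50.2 CPM, so that 1 control overlapped the dextran group. Among receptors, Tgfbr1 ran from 83.2 to 93.6 CPM in dextran libraries and from 46.8 to 82.1 CPM in control libraries without overlap, and the BMP receptors Bmpr1a, Bmpr1b and Bmpr2 had log2 changes of 0.23 ± 0.20, 0.20 ± 0.31 and 0.14 ± 0.23.

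Secreted antagonists of BMP included 2 of the wider differences. Bmper, which binds BMPs outside the cell, was at 19.2, 25.7, 98.9 and 21.2 CPM in dextran libraries, against 11.4, 9.23, 8.49 and 13.8 CPM in control libraries. Nbl1, a member of the Dan family of antagonists, was at 6.84, 15.7, 12.7 and 14.5 CPM in dextran libraries, against 2.71, 4.03, 2.55 and 5.76 CPM in control libraries. Neither gene's groups overlapped, and the log2 changes were 1.95 ± 0.68 for Bmper, where replicate 3 stood apart, and 1.72 ± 0.71 for Nbl1. On the lower side the groups did not overlap for Fstl3, a relative of follistatin, at 1.02 to 2.35 CPM in dextran libraries and 2.58 to 3.89 CPM in control libraries and a log2 change of −0.89 ± 0.96. Fst, follistatin, which neutralises activin, had a log2 change of −0.36 ± 0.29. Of the 11 antagonists tested, 6 had a log2 change above 0 and 5 below, with a median of 0.11 that was −0.02 at its lowest over the alternatives.

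**Figure D3:**
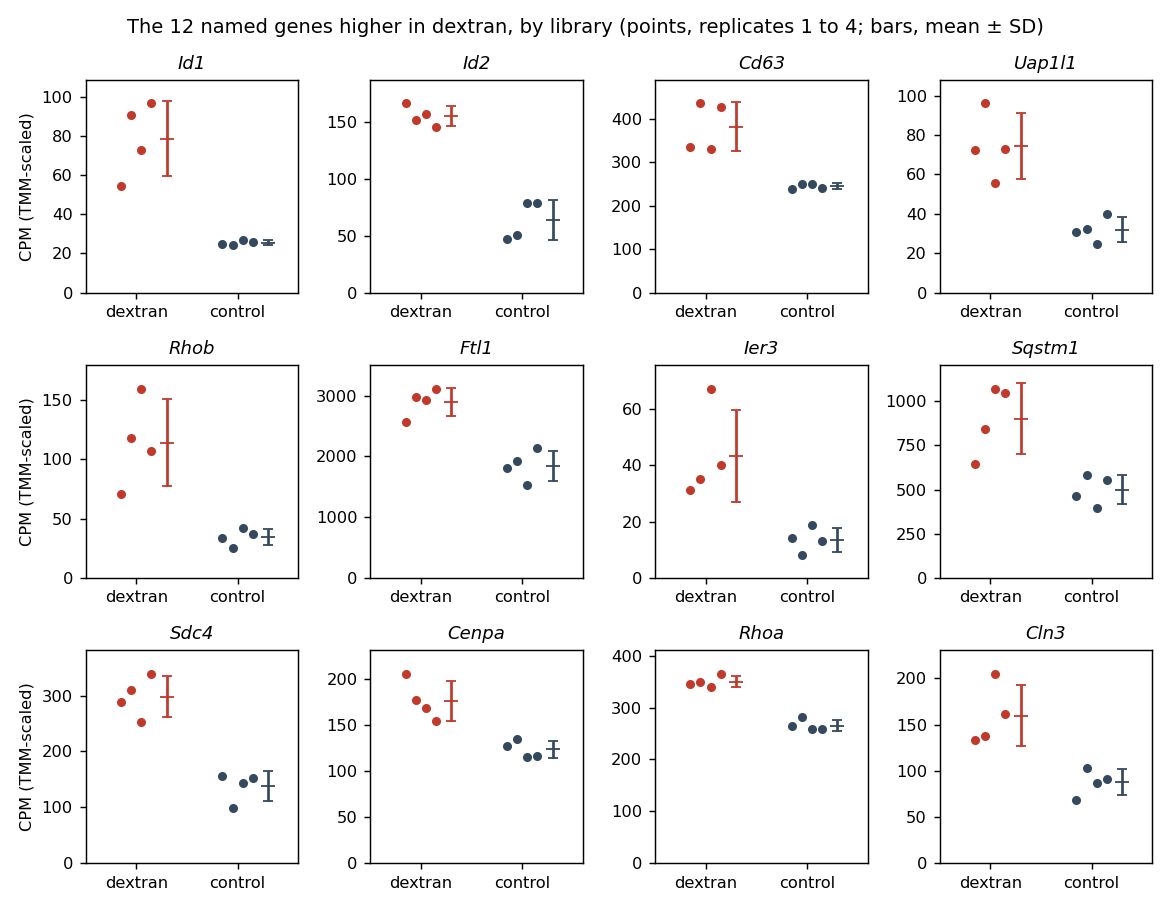
Levels in CPM (vertical, from 0) of the 12 named genes higher under dextran, with the 4 dextran libraries (red) left of the 4 control libraries (dark), points for replicates 1 to 4 and bars for mean ± SD. The 2 groups do not overlap in any panel, which the choice of these genes required, and the control points of Id1 lie between 24.1 and 26.9 CPM.

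Genes of late endosomes, lysosomes and autophagy were also among those named. Cd63, a tetraspanin of late endosomes, was at 336, 436, 331 and 427 CPM in dextran libraries, against 237, 251, 249 and 242 CPM in control libraries, a log2 change of 0.64 ± 0.10. Sqstm1, the p62 adaptor that delivers cargo to autophagosomes, was at 645, 843, 1073 and 1049 CPM in dextran libraries, against 466, 580, 398 and 553 CPM in control libraries. Its log2 change was 0.85 ± 0.16 (edgeR adjusted p = 0.357), and dextran replicate 1 lay nearest the controls. Cln3, a lysosomal membrane protein that is lost in human juvenile Batten disease, was at 134, 138, 205 and 162 CPM in dextran libraries, against 68.7, 103, 87.1 and 91.0 CPM in control libraries. The log2 change of Cln3 was 0.87 ± 0.18 (edgeR adjusted p = 0.527). Of 28 tested genes of lysosomes and late endosomes, 27 had a log2 change above 0 and 1 below, with a median of 0.25 that ran from 0.22 to 0.30 over the alternatives. Members moved together within groups, so they are not separate pieces of evidence. Dextran replicate 3 was the lowest dextran library for 17 of the 28 and dextran replicate 1 the highest for 13. Control replicate 2 was the lowest control for 16. At an unadjusted p under 0.05 there were 7 of the 28, all higher, beside 2.37% higher over all genes. The groups did not overlap for 6, all higher, beside 2.67% over all genes. Hexa, a subunit of a lysosomal hexosaminidase, was at 189, 189, 147 and 165 CPM in dextran libraries, against 113, 117, 125 and 125 CPM in control libraries. Its groups did not overlap, and the log2 change was 0.53 ± 0.11. Atp6v1h, a subunit of the proton pump that acidifies lysosomes, was at 118, 116, 115 and 116 CPM in dextran libraries, against 88.9, 88.2, 84.2 and 72.1 CPM in control libraries, and the spread within dextran was the smaller. Lamp2, a lysosomal membrane protein, had a log2 change of 0.64 ± 0.22, with control replicate 4 (253 CPM) inside the dextran range. Ctsb and Ctsz, both cathepsins, had log2 changes of 0.10 ± 0.59 and 0.05 ± 0.13, so the differences were not of one size. The lower one was Tfeb, the transcription factor of lysosomal genes, at 0.988 to 1.83 CPM in dextran libraries and 1.14 to 2.17 CPM in control libraries.

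The promoter of Cln3 is shown because E-boxes of the form CACGTG, which factors of the Tfeb family bind, occur in many lysosomal promoters. It was chosen after its letters were seen. The sequence is RefSeq's on build GRCm38.p6, chr7:126583237-126583486 on the minus strand, the 250 bases before 1 of the gene's 2 annotated starts, with CACGTG in capitals.
Cln3: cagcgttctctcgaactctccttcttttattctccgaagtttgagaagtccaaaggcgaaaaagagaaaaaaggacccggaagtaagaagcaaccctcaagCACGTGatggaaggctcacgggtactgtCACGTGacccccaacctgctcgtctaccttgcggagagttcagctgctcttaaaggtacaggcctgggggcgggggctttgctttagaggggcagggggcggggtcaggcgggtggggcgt
CACGTG stands here 2 times, 149 and 121 bases before the start, and 1 of the 2 lies within TCACGTGA. CACGTG occurs in 6.02% and TCACGTGA, which contains it, in 0.785% of the 32851 promoters. Both read the same on either strand. Of the 10 named higher genes in the table, 1 holds each.

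Iron handling and oxidant defence genes were read as a further list. Ftl1, the ferritin light chain that stores iron, was at 2567, 2978, 2931 and 3116 CPM in dextran libraries, against 1805, 1915, 1533 and 2130 CPM in control libraries. The groups did not overlap and the log2 change was 0.65 ± 0.12 (edgeR adjusted p = 0.295). Blebbistatin libraries averaged 3759 CPM, above the dextran mean of 2898 CPM. Ftl1 has near-identical copies in the genome, so how the authors' counting split its reads is uncertain. Slc40a1, ferroportin, which exports iron, was at 254, 238, 279 and 278 CPM in dextran libraries, against 94.5, 70.8, 89.4 and 184 CPM in control libraries. The log2 change of Slc40a1 was 1.26 ± 0.34. Fth1, the ferritin heavy chain, had a log2 change of 0.34 ± 0.16, and Tfrc, the transferrin receptor that brings iron in, one of −0.15 ± 0.28, both with overlap. Of 24 tested genes of the NRF2, ferritin and oxidant list, 18 had a log2 change above 0 and 6 below, with a median of 0.15. At an unadjusted p under 0.05 there were 5, all higher, beside 2.37% higher over all genes. The NRF2 targets Hmox1 and Nqo1 had log2 changes of 0.31 ± 0.23 and −0.14 ± 0.77. Uap1l1, a relative of the enzyme that makes UDP-N-acetylglucosamine, belongs to none of these lists. It was at 72.4, 96.1, 55.5 and 73.2 CPM in dextran libraries, against 30.8, 32.5, 24.8 and 39.9 CPM in control libraries, with a log2 change of 1.22 ± 0.20 (edgeR adjusted p = 0.174).

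Regulators of contractility and adhesion genes follow, the parts of the cell that carry tension. Rhob, an endosomal small GTPase that growth factors and stress induce quickly, was at 70.4, 118, 160 and 107 CPM in dextran libraries, against 33.6, 25.1, 41.7 and 37.2 CPM in control libraries. Its log2 change of 1.73 ± 0.31 (edgeR adjusted p = 0.295) was the widest of the 12 named higher genes. Rhoa, the GTPase that drives stress fibres through the ROCK kinases, was at 347, 349, 340 and 366 CPM in dextran libraries, against 264, 282, 258 and 258 CPM in control libraries. The difference for Rhoa was small, at a log2 change of 0.40 ± 0.08, but both groups were tight and did not overlap. Rnd3, an atypical small GTPase that opposes Rhoa, had a log2 change of 1.27 ± 0.33, with dextran replicate 1 (9.58 CPM) below the highest control (10.8 CPM). The kinases Rock1 and Rock2 had log2 changes of 0.16 ± 0.19 and 0.01 ± 0.25. The myosin II heavy chains Myh9 and Myh10 had log2 changes of −0.10 ± 0.23 and 0.03 ± 0.13, and the light chains Myl6 and Myl12a had 0.34 ± 0.13 and 0.33 ± 0.12. Myl9, the smooth muscle light chain, had a log2 change of −1.74 ± 0.83. It was at 0.800 to 16.7 CPM in dextran libraries and 4.52 to 47.2 CPM in control libraries. The smooth muscle marker Acta2 was at 15.4 to 40.4 CPM in dextran libraries and 14.3 to 146 CPM in control libraries, with control replicate 1 the highest control for both genes. The part of such cells in the Myl9 value was not tested. Of 24 tested genes of myosin II and its regulation, 19 had a log2 change above 0 and 5 below, with a median of 0.21. At an unadjusted p under 0.05 there were 5, all higher, beside 2.37% higher over all genes.

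At the cell surface, Sdc4, a heparan sulfate proteoglycan of focal adhesions, was at 289, 310, 252 and 339 CPM in dextran libraries, against 156, 97.7, 144 and 152 CPM in control libraries. The groups lay well apart, with a log2 change of 1.11 ± 0.22 (edgeR adjusted p = 0.422). Itgb1, the beta 1 chain shared by most integrins, ran from 287 to 345 CPM in dextran libraries and from 231 to 283 CPM in control libraries. Its groups were close but did not overlap, at a log2 change of 0.29 ± 0.10. Itga5, the fibronectin receptor chain, ran from 21.6 to 31.0 CPM in dextran libraries and from 12.1 to 16.4 CPM in control libraries, without overlap, and its log2 change was 0.79 ± 0.30. Vcl, vinculin, which links adhesions to actin, had a log2 change of 0.95 ± 0.39, and 1 control library (31.6 CPM, replicate 4) lay within the dextran range. Of 28 tested integrin and focal adhesion genes, 24 had a log2 change above 0 and 4 below, with a median of 0.26. At an unadjusted p under 0.05 there were 4, all higher, beside 2.37% higher over all genes. Dextran replicate 3 was the highest dextran library for 15 of the 28 and dextran replicate 1 the lowest for 12. Control replicate 4 was the highest control for 13, so members are not separate pieces of evidence. Among junction genes, Ctnna1, alpha catenin, had a log2 change of 0.26 ± 0.10 without overlap, and Jup, plakoglobin, one of 0.95 ± 0.38 with control replicate 4 inside the dextran range. Gja1, the gap junction channel between granulosa cells, had a log2 change of 0.04 ± 0.11, which took the other sign without control replicate 1 or 2.

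Actin and tubulin genes gave further values of this kind. Actg1, cytoplasmic gamma actin, was at 652, 864, 852 and 770 CPM in dextran libraries, against 497, 444, 491 and 660 CPM in control libraries, a log2 change of 0.58 ± 0.13. Actb, its beta counterpart, had a log2 change of 0.29 ± 0.11. Both overlapped by 1 library per group. Tubb2a, a beta tubulin, was at 24.9, 51.8, 57.6 and 33.0 CPM in dextran libraries, against 16.96, 13.3, 10.7 and 22.6 CPM in control libraries. Its groups did not overlap, at a log2 change of 1.40 ± 0.30 (edgeR adjusted p = 0.527). Actins and tubulins have close paralogs, so part of their reads may be shared between genes. Mmp11, a matrix metalloproteinase, was at 197, 351, 571 and 452 CPM in dextran libraries, against 114, 167, 114 and 186 CPM in control libraries, with a log2 change of 1.44 ± 0.31. Its groups did not overlap. Of 20 tested matrix proteases and inhibitors, 13 had a log2 change above 0 and 7 below, with a median of 0.36 that was 0.0072 without dextran replicate 2, 0.19 without control replicate 2 and 0.24 without control replicate 3. The stromal marker sums overlapped between groups, as given above, and the part of stromal cells in the Mmp11 value was not tested.

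Immediate early genes, transcribed within minutes of a stimulus, included Ier3, which restrains cell death. Ier3 was at 31.2, 35.2, 67.3 and 39.96 CPM in dextran libraries, against 14.1, 8.23, 18.7 and 13.1 CPM in control libraries. The log2 change was 1.68 ± 0.31 (edgeR adjusted p = 0.297), and dextran replicate 3 was the highest. Klf6, a zinc finger factor, was at 109, 114, 122 and 121 CPM in dextran libraries, against 38.3, 30.8, 52.1 and 83.7 CPM in control libraries. Dextran libraries agreed closely for Klf6 while the controls spread, and the log2 change was 1.19 ± 0.38. Jun, a subunit of AP-1, ran from 129 to 276 CPM in dextran libraries and from 33.9 to 121 CPM in control libraries. Its partner Fos overlapped widely, at a log2 change of 0.63 ± 0.44, and Fosb was at 0.821 to 2.43 CPM in dextran libraries and 0.271 to 5.88 CPM in control libraries. Of 25 tested immediate early genes, 22 had a log2 change above 0 and 3 below, with a median of 0.72 that ran from 0.46 (without dextran replicate 3) to 0.90 over the alternatives. At an unadjusted p under 0.05 there were 3, all higher, beside 2.37% higher over all genes. The groups did not overlap for 5, all higher, beside 2.67% over all genes. Dextran replicate 1 was the lowest of the 4 dextran libraries for 13 of the 25, and control replicate 2 the lowest of the controls for 12.

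Feedback inhibitors of the ERK kinase are induced by ERK itself. Dusp6, an ERK phosphatase, was at 13.1, 20.7, 26.4 and 34.6 CPM in dextran libraries, against 6.59, 2.22, 7.51 and 1.14 CPM in control libraries. Spry2, an inhibitor upstream of ERK, was at 6.13, 5.25, 7.62 and 7.47 CPM in dextran libraries, against 3.04, 3.21, 3.76 and 3.36 CPM in control libraries. Neither gene overlapped between groups, with log2 changes of 2.44 ± 0.90 for Dusp6 and 0.98 ± 0.36 for Spry2. Etv5, an ETS factor downstream of ERK, had a log2 change of 2.04 ± 0.67, with control replicate 4 at 10.9 CPM against 1.76 to 2.94 CPM in the other 3 controls. Of 12 tested genes, 9 had a log2 change above 0 and 3 below, with a median of 0.63 (0.97 without control replicate 1). At an unadjusted p under 0.05 there were 3, all higher, beside 2.37% higher over all genes.

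YAP and TAZ targets varied widely within each group. Ccn1, a secreted target and a standard readout, was at 11.4, 36.6, 82.4 and 140 CPM in dextran libraries, against 14.01, 8.95, 37.6 and 36.9 CPM in control libraries. Ccn2, its relative, was at 1.10, 2.92, 5.69 and 3.22 CPM in dextran libraries, against 0.654, 0.181, 0.371 and 3.60 CPM in control libraries. Both overlapped, with log2 changes of 1.48 ± 0.76 for Ccn1 and 1.44 ± 1.02 for Ccn2. The value for Ccn1 was 0.84 without dextran replicate 4, and that for Ccn2 was 2.99 without control replicate 4. Amotl2, a scaffold that binds YAP, had a log2 change of 1.51 ± 0.65, at 6.41 CPM in dextran replicate 1 and 25.7 to 61.1 CPM in the other dextran libraries, against 5.32 to 23.6 CPM in control libraries. The receptor kinase Axl ran from 46.7 to 90.1 CPM in dextran libraries and from 43.0 to 57.4 CPM in control libraries. Of 18 tested targets, 16 had a log2 change above 0 and 2 below, and the groups did not overlap for 0 of the 18. At an unadjusted p under 0.05 there were 2, both higher, beside 2.37% higher over all genes. The median was 0.37, and it was 0.60 without dextran replicate 1 and 0.57 without control replicate 4. Dextran replicate 1 was the lowest dextran library for 10 of the 18, and control replicate 4 the highest control for 8.

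The Hippo pathway holds YAP and TAZ in the cytoplasm. Tead2, a DNA-binding partner of YAP, was at 39.8, 52.9, 64.4 and 56.6 CPM in dextran libraries, against 31.4, 33.2, 29.4 and 30.5 CPM in control libraries. Vgll4, which competes with YAP for TEAD factors, was at 38.5, 48.2, 35.6 and 31.9 CPM in dextran libraries, against 30.3, 19.4, 26.8 and 24.7 CPM in control libraries. These were the 2 of 23 tested components whose groups did not overlap, beside 4.71% of all genes tested. The log2 changes of Tead2 and Vgll4 were 0.78 ± 0.20 and 0.61 ± 0.21. Yap1 itself ran from 18.6 to 25.7 CPM in dextran libraries and from 22.4 to 25.9 CPM in control libraries, a log2 change of −0.14 ± 0.25. The kinases Lats1 and Stk3 had log2 changes of 0.15 ± 0.28 and −0.18 ± 0.16. Of 18 tested WNT pathway genes, 16 had a log2 change above 0 and 2 below, with a median of 0.42 (0.24 without dextran replicate 2) and 0 at an unadjusted p under 0.05. Tcf7l2, the WNT transcription factor of that list with a log2 change of 0.77 ± 0.36, overlapped through control replicate 4 (220 CPM, against 64.4 to 101 CPM in the other controls).

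**Figure D4:**
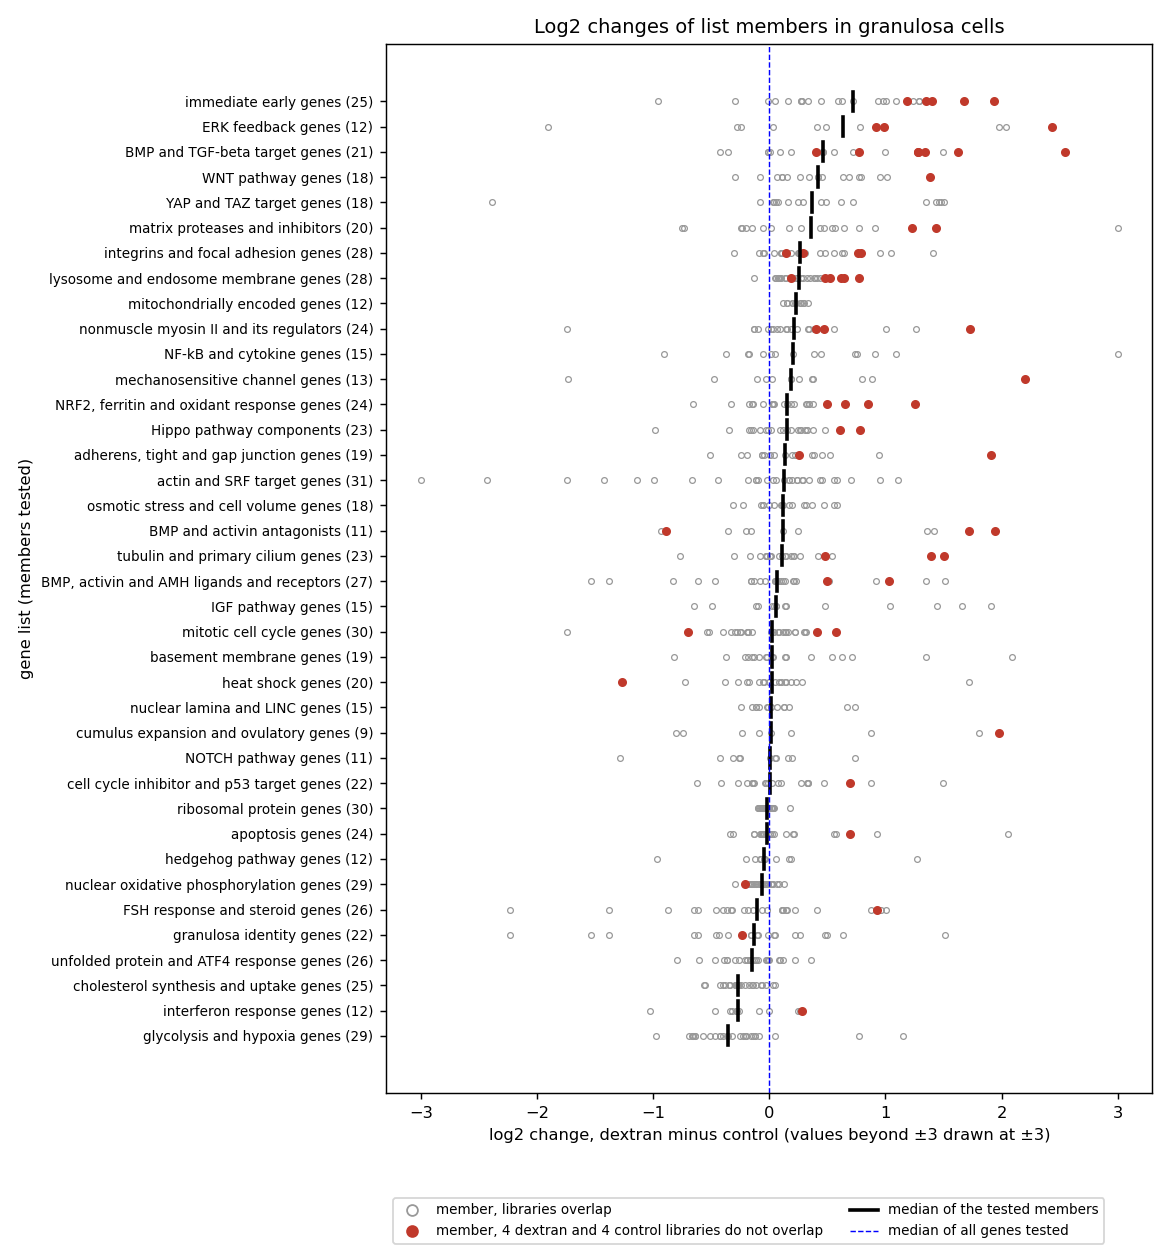
Log2 changes (dextran minus control, horizontal) of the tested members of 38 gene lists, 1 point per gene, with the number tested in brackets and the list median as a black bar. Red points are members whose 4 dextran and 4 control libraries do not overlap; medians run from −0.35 for glycolysis and hypoxia genes to 0.72 for immediate early genes, around a median of −0.0037 over all genes (dashed line).

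On the lower side the 12 named genes had larger p-values than the 12 named higher genes. Septin4, a filament-forming GTPase, was at 21.4, 20.6, 10.5 and 21.3 CPM in dextran libraries, against 48.5, 47.1, 49.5 and 34.6 CPM in control libraries. Its log2 change of −1.28 ± 0.28 was the widest of the 12 (edgeR adjusted p = 0.574). Mycl, a member of the MYC family, was at 131, 146, 99.5 and 110 CPM in dextran libraries, against 232, 252, 243 and 166 CPM in control libraries, a log2 change of −0.88 ± 0.25. Car14, a membrane carbonic anhydrase, was at 811, 735, 576 and 828 CPM in dextran libraries, against 1076, 1017, 1146 and 1070 CPM in control libraries, a log2 change of −0.55 ± 0.16. Myo6, the myosin that walks towards the minus end of actin, ran from 84.9 to 142 CPM in dextran libraries and from 151 to 189 CPM in control libraries. For Evc2, a ciliary protein that passes on hedgehog signals, levels were 191 to 262 CPM in dextran libraries and 306 to 394 CPM in control libraries. The hedgehog ligand Dhh, which granulosa cells send to theca cells, was at 80.3, 55.8, 41.9 and 65.7 CPM in dextran libraries, against 136, 134, 137 and 69.7 CPM in control libraries. It was among the 8 lower genes called by DESeq2, and its groups overlapped through control replicate 4.

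The other named lower genes act in DNA repair, mitochondria and membrane compartments. Rad54l, of homologous recombination, was at 49.7, 49.4, 51.5 and 48.5 CPM in dextran libraries, against 63.6, 69.7, 70.1 and 64.8 CPM in control libraries. Msh6, of mismatch repair, ran from 96.9 to 120 CPM in dextran libraries and from 123 to 167 CPM in control libraries. Their log2 changes were −0.43 ± 0.11 and −0.45 ± 0.14. The mitochondrial proteins Pdf, a peptide deformylase, and Mrps34, of the small ribosomal subunit, had log2 changes of −0.40 ± 0.12 and −0.32 ± 0.10. Kdelr3, a receptor that returns proteins to the endoplasmic reticulum, and Entpd4, a nucleotidase of the Golgi and lysosomes, had log2 changes of −0.62 ± 0.18 and −0.53 ± 0.14. Plbd1, a phospholipase B-like protein, had a log2 change of −0.74 ± 0.21, and its groups nearly met (83.0 CPM in the highest dextran library, 86.7 CPM in the lowest control).

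**Figure D5:**
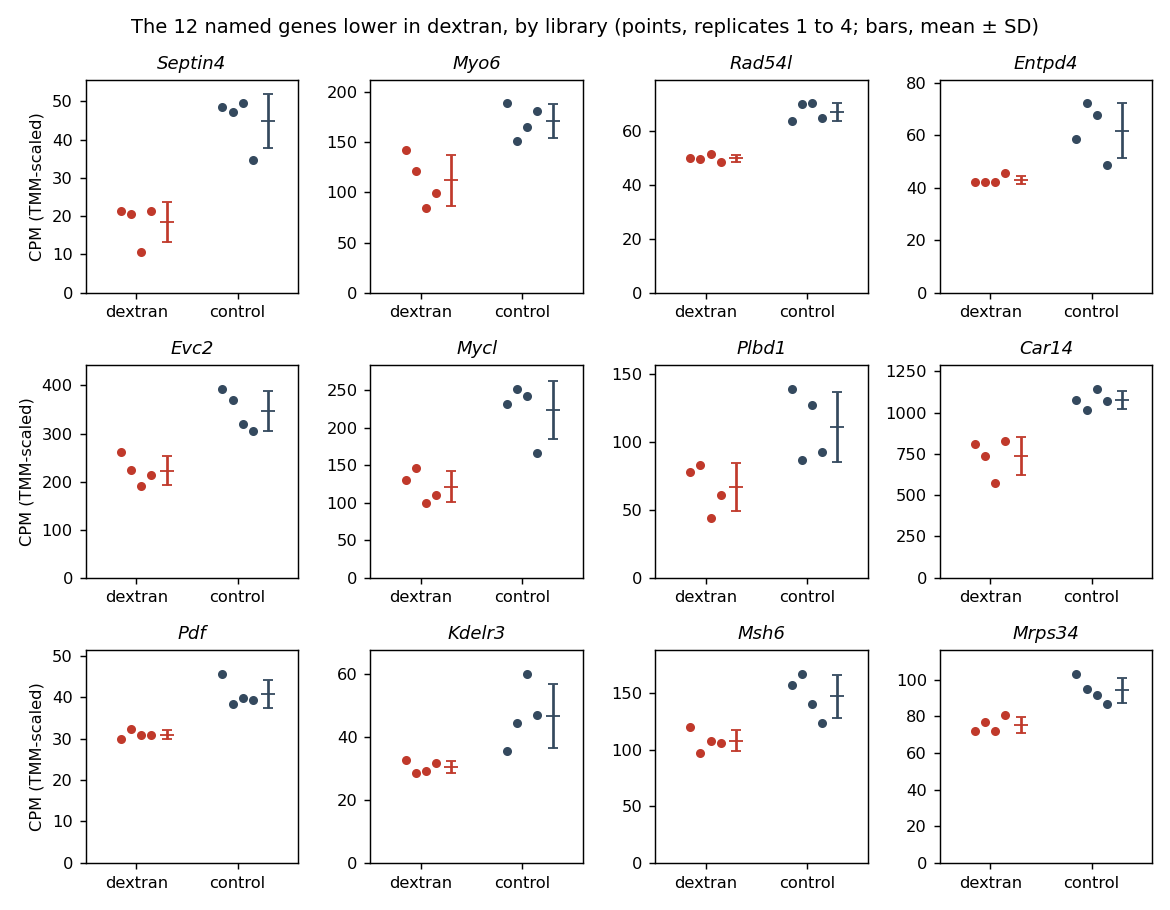
Levels in CPM (vertical, from 0) of the 12 named genes lower under dextran, with the 4 dextran libraries (red) left of the 4 control libraries (dark), points for replicates 1 to 4 and bars for mean ± SD. No panel overlaps, as the choice required; the dextran points of Rad54l lie between 48.5 and 51.5 CPM and those of its controls between 63.6 and 70.1 CPM.

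Genes of granulosa cell function varied between libraries of the same group. Fshr, the FSH receptor, was at 44.6, 38.8, 19.1 and 71.0 CPM in dextran libraries, against 56.9, 77.4, 73.7 and 63.7 CPM in control libraries. Amh, anti-Müllerian hormone, was at 380, 58.2, 43.0 and 47.1 CPM in dextran libraries, against 339, 285, 102 and 81.0 CPM in control libraries. Cyp19a1, the aromatase that makes estrogen, was at 6.90, 0.545, 0 and 0 CPM in dextran libraries, against 16.9, 0.497, 17.5 and 0 CPM in control libraries. All 3 overlapped, and dextran replicate 1 was the highest dextran library for Amh and Cyp19a1. The log2 changes were −0.65 ± 0.48 for Fshr and −0.61 ± 0.77 for Amh. The value for Fshr was −0.40 without dextran replicate 3 and −0.99 without dextran replicate 4. The value for Amh was −2.03 without dextran replicate 1 and −0.25 to −0.87 without any 1 of the other 7 libraries. Foxl2, the transcription factor that keeps granulosa identity, ran from 17.3 to 27.6 CPM in dextran libraries and from 13.0 to 31.4 CPM in control libraries. Its log2 change of −0.11 ± 0.27 took the other sign without control replicate 1 or dextran replicate 3. Kitl, the granulosa ligand of the oocyte's Kit receptor, had a log2 change of 0.64 ± 0.36, which was 0.28 without dextran replicate 1. Of 22 tested granulosa identity genes, 8 had a log2 change above 0 and 14 below, with a median of −0.13. At an unadjusted p under 0.05 there were 3, all lower, beside 1.03% lower over all genes. The median was −0.23 without dextran replicate 1, −0.07 without dextran replicate 3 and −0.21 without control replicate 4. Dextran replicate 1 was the highest dextran library for 14 of the 22, dextran replicate 3 the lowest for 13 and control replicate 4 the lowest control for 12. Nr5a2, a nuclear receptor of granulosa cells, was the 1 of the 22 whose groups did not overlap, beside 4.71% of all genes tested. It was at 199 to 260 CPM in dextran libraries and 275 to 299 CPM in control libraries. In the FSH response list, Crem, a cAMP-induced transcription factor, had a log2 change of 0.93 ± 0.35 without overlap.

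Cell cycle genes lay on both sides of 0. Ccnb1, a cyclin of mitosis, ran from 294 to 396 CPM in dextran libraries and from 226 to 277 CPM in control libraries. Ccnb2, its relative, ran from 250 to 369 CPM in dextran libraries and from 170 to 243 CPM in control libraries. Neither overlapped, with log2 changes of 0.41 ± 0.10 and 0.58 ± 0.22. Cenpa, the histone of centromeres, was at 206, 177, 168 and 154 CPM in dextran libraries, against 128, 135, 115 and 116 CPM in control libraries, a log2 change of 0.51 ± 0.10 (edgeR adjusted p = 0.479). Ccne1, the cyclin of S phase entry, was at 15.9, 22.3, 26.5 and 22.2 CPM in dextran libraries, against 37.6, 43.0, 32.4 and 28.3 CPM in control libraries, a log2 change of −0.70 ± 0.24. The replication helicase subunits Mcm2, Mcm3, Mcm4, Mcm5, Mcm6 and Mcm7 had log2 changes between −0.52 (Mcm5) and −0.15 (Mcm7), all overlapping. Mki67, a marker of dividing cells, had one of 0.15 ± 0.14. Over the 30 tested genes 16 had a log2 change above 0 and 14 below. The median of 0.02 took either sign over the alternatives.

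In the glycolysis, cholesterol and unfolded protein lists most log2 changes were below 0, and the groups did not overlap for 0 members. Of 29 tested glycolysis and hypoxia genes, 3 had a log2 change above 0 and 26 below, with a median of −0.35. Gapdh, a glycolytic enzyme, was at 1053, 721, 633 and 785 CPM in dextran libraries, against 1217, 977, 1484 and 880 CPM in control libraries, and it was the 1 with an unadjusted p under 0.05. Ldha, which makes lactate, was at 1715, 827, 634 and 725 CPM in dextran libraries, against 1957, 1231, 2257 and 712 CPM in control libraries. In this list dextran replicate 1 was the highest dextran library for 21 of 29 genes, control replicate 3 the highest control for 19 and control replicate 4 the lowest for 25. The median was −0.18 without control replicate 3 and −0.54 without control replicate 4. Of 25 tested cholesterol genes, 23 had a log2 change below 0, with a median of −0.27 and 0 at an unadjusted p under 0.05. Dextran replicate 3 was the lowest dextran library for 21 of the 25 and dextran replicate 1 the highest for 18, and control replicate 4 was the lowest control for 20. The median was −0.41 without dextran replicate 1, −0.15 without dextran replicate 3, −0.13, −0.17 and −0.43 without control replicates 2, 3 and 4. Of 26 tested genes of the unfolded protein response, 21 had a log2 change below 0, with a median of −0.15. At an unadjusted p under 0.05 there were 3, all lower, beside 1.03% lower over all genes. Dextran replicate 1 was the highest dextran library for 15 of the 26, control replicate 2 the highest control for 21 and control replicate 4 the lowest for 17. The median was −0.09 without dextran replicate 3 and −0.08 without control replicate 2. In this list Creld2 and Sdf2l1, both of the endoplasmic reticulum, had log2 changes of −0.47 ± 0.16 and −0.61 ± 0.27. All 12 tested mitochondrially encoded genes had a log2 change above 0, from 0.12 (mt-Co3) to 0.33 (mt-Nd4l), each with overlap. Single libraries moved this list as a whole. Dextran replicate 1 was the highest dextran library for 11 of the 12 and dextran replicate 2 the lowest for 11, while control replicate 2 was the highest control for 11 and control replicate 3 the lowest for 12. The median of 0.23 was 0.10 without dextran replicate 1, 0.39 without control replicate 2 and 0.12 without control replicate 3.

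Because dextran raises the osmotic pressure of the medium, genes of osmotic stress and cell volume were read apart. Nfat5, the transcription factor of the hypertonic response, was at 13.5, 13.9, 26.3 and 15.8 CPM in dextran libraries, against 12.6, 11.5, 16.5 and 15.2 CPM in control libraries. Its targets Slc6a6, Slc5a3 and Akr1b1, which load cells with osmolytes, had log2 changes of 0.20 ± 0.10, 0.11 ± 0.30 and 0.04 ± 0.12. Of 18 tested genes of this list 12 had a log2 change above 0 and 6 below, the median was 0.12, 0 had an unadjusted p under 0.05, and the groups did not overlap for 0. The median did not keep its size or sign, at 0.04 without dextran replicate 1, 0.05 without dextran replicate 2, 0.07 without control replicate 4, 0.03 with limma voom and −0.0040 with a replicate block. For Nfat5 the log2 change of 0.32 ± 0.35 was 0.04 without dextran replicate 3. Among channels gated by stretch or volume, Piezo1 was at 1.13 to 9.12 CPM in dextran libraries and 3.24 to 6.68 CPM in control libraries. Its log2 change of −0.11 ± 0.63 changed sign without control replicate 1 or dextran replicate 3 or 4. Lrrc8c, a subunit of the volume-regulated anion channel, had a log2 change of 0.89 ± 0.33, at 87.8 and 111 CPM in dextran replicates 2 and 3, 39.1 and 45.1 CPM in replicates 1 and 4, and 34.7 to 46.8 CPM in control libraries. Hspb1, a small heat shock protein of the actin cytoskeleton, was at 12.5, 24.2, 56.7 and 59.6 CPM in dextran libraries, against 12.7, 10.8, 8.21 and 14.8 CPM in control libraries. Its groups overlapped through dextran replicate 1, at a log2 change of 1.72 ± 0.49. Hspa1a, the inducible HSP70, was at 2.82 to 4.98 CPM in dextran libraries and 5.16 to 14.2 CPM in control libraries, without overlap. It has a near-identical copy, Hspa1b, so its reads may be shared.

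The blebbistatin libraries share the control libraries, so the 2 treatments are set side by side by level. Id1 averaged 78.6 ± 19.1 CPM in dextran libraries, 67.5 ± 26.7 CPM in blebbistatin libraries and 25.5 ± 1.24 CPM in control libraries (SD, n = 4 each). Id2 averaged 155 ± 8.66 CPM in dextran libraries, 127 ± 30.6 CPM in blebbistatin libraries and 63.7 ± 17.4 CPM in control libraries. Blebbistatin minus control gave log2 changes of 1.13 for Ier3, 1.04 for Uap1l1, 0.49 for Cd63 and 0.44 for Sdc4. For Sqstm1, Cenpa, Cln3, Rhob and Rhoa they were 0.26, 0.25, 0.19, 0.10 and −0.09. Of the named lower genes, Plbd1, Evc2, Car14, Myo6, Entpd4 and Mycl had −1.49, −0.87, −0.77, −0.76, −0.74 and −0.65. Kdelr3, Rad54l, Msh6, Septin4, Pdf and Mrps34 had −0.22, −0.18, −0.06, −0.04, 0.04 and 0.04. Shared controls enter both differences, so like signs are not separate evidence. Immune cell markers summed to 711, 1042, 4.61 and 5.23 CPM in blebbistatin replicates 1 to 4, and theca and stromal markers to 1725, 463, 1155 and 515 CPM. Replicate 1, with 14501 genes detected, also had the highest Id1 of these 4 (106 CPM). The part of such cells in the levels of Id1, Id2 and the other named genes was not tested. Dextran minus blebbistatin gave log2 differences of 0.22 ± 0.25 for Id1 and 0.29 ± 0.20 for Id2, and edgeR called 0 of 15370 genes (0%) between these treatments. Between blebbistatin and control it called 1 (0.00651%), Ftl1, at a log2 change of 1.03 ± 0.12 (edgeR adjusted p = 0.0214). Ftl1 averaged 2898 CPM in dextran libraries, 3759 CPM in blebbistatin libraries and 1846 CPM in control libraries. The distance of a library from the rest of its group was taken as the median absolute log2 difference over genes. It was 0.28 to 0.57 for blebbistatin, 0.16 to 0.20 for dextran and 0.14 to 0.25 for control libraries. Blebbistatin replicate 1 stood furthest from its group, and leaving it out of the fit gave 4 calls for dextran against control, Id1, Id2, Rhob and Sdc4.

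Oocytes of the same culture conditions were sequenced in 4 dextran and 4 control libraries, each from 1 or 2 oocytes. A test of the difference in dextran response between granulosa cells and oocytes called 0 of 20601 genes by edgeR (0%), with 1912 (9.28%) at an unadjusted p under 0.05; DESeq2 called 243 and limma voom 0. Id1 had the smallest p, with a log2 difference of 2.63 ± 0.49 (edgeR adjusted p = 0.246). In oocyte libraries Id1 was at 0.726 to 1.79 CPM under dextran and 1.34 to 3.39 CPM in control medium. Granulosa markers in those oocyte libraries summed to 1.10 to 39.7 CPM under dextran and 12.5 to 1570 CPM in control medium; their part in the difference was not tested. Next by p on the same side were Fyttd1, an mRNA export adaptor (1.497 ± 0.296), and Flna, filamin A, which cross-links actin (2.70 ± 0.54). For Fyttd1 the log2 change was 0.17 in granulosa cells and −1.21 in oocytes, and for Flna 0.45 and −2.12. These 2 differences thus lay mostly on the oocyte side. Flna in oocyte libraries was low, at 0.430 to 2.05 CPM under dextran and 2.17 to 6.62 CPM in control medium. In granulosa cell libraries the groups overlapped for both genes. The 3 genes with the smallest p on the other side, Mab21l2, Zmat4 and Lmo1, were at 0 to 0.110 CPM in dextran and 0 to 1.20 CPM in control granulosa cell libraries. No dextran response of granulosa cells can be read from them.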

How the data were processed

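RNA was extracted for all replicates together and amplified by 15 PCR cycles, per the labels' protocols. The authors deposited 1 table of estimated counts per cell type, made with salmon per the labels' descriptions, on build GRCm39 per the submitters' processing notes. Aligner, annotation release, versions and strandedness are not stated in the labels, so reads of overlapping or antisense genes cannot be told apart. The deposited values of the 24 libraries (14244103 to 22431013 counts each, over 78298 genes) were rounded to whole numbers. Low genes were removed with filterByExpr, libraries scaled with TMM, and groups compared with edgeR 4.0.16 (glmQLFit, robust, and glmQLFTest) in R 4.3.3. The dextran comparison was fitted on 12 granulosa cell libraries, and the difference from oocytes on 24. Benjamini-Hochberg adjustment ran over all genes tested, with a threshold of 0.05.

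Alternatives were DESeq2 1.42.0, limma 3.58.1 (voom), other scalings and filters, only the 8 libraries compared, a replicate block, and each library left out. After the 8-library fit called 1 gene, that fit was also run with a block and without each library. The fits were tested on simulated data. Reads carry no molecular identifiers, so counts are not independent molecules. CPM here are counts scaled to a common library size by TMM, not corrected for length. Named genes were the 12 per direction with the smallest p, a mean of at least 5 CPM over 12 libraries and no overlap between 4 dextran and 4 control libraries. Up to 2 members per list and direction, a set of anchors and 3 genes per direction for the cell type difference were also named, and other list members were chosen after their values were seen. The lists (45, with 979 entries) and the genes were chosen with earlier results of these data known. Of 923 distinct symbols 10 were not in the table and 776 passed the filter. The anchor Has2 did not pass it. Some list members are not reported here.

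Deviations of same-numbered dextran and control libraries correlated at 0.317, −0.183, −0.0080 and 0.142 for replicates 1 to 4. Libraries of different numbers correlated at −0.300 to 0.142. The labels do not say whether same-numbered libraries shared animals or cultures, so these values cannot decide whether the numbers pair the libraries. No 2 libraries of a group were alike enough to be 1 library deposited more than once (chi-square per gene of at least 22.9).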

Additional observations from a re-analysis of the deposited data

Results flagged for a closer look

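Of 106 groups of 4 libraries examined, 8 held 1 library whose gap to its nearest neighbour exceeded Dixon's critical share of the group's range. Chance gives about 1 such library in 20 groups. Septin4 stood at 10.5 CPM in dextran replicate 3, against 20.6 to 21.4 CPM in the other dextran libraries, and at 34.6 CPM in control replicate 4, against 47.1 to 49.5 CPM in the other controls. For Entpd4, dextran replicate 4 was at 45.4 CPM and the others at 42.0 to 42.2 CPM. For Smad7, dextran replicate 4 was at 34.5 CPM and the others at 23.5 to 24.7 CPM. Ccn2 was at 3.60 CPM in control replicate 4 and at 0.181 to 0.654 CPM in the other controls. Dextran replicate 1 held the high value of both Cyp19a1, at 6.90 CPM beside 0 to 0.545 CPM in the other dextran libraries, and Amh, at 379.7 CPM beside 43.0 to 58.2 CPM. The summed immune cell markers were at 15.1 CPM in control replicate 4, against 3.83 to 5.07 CPM in the other controls.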

How the results depend on the processing

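The count of 0 called genes for dextran against control in granulosa cells became 42 with DESeq2, 4 without a filter on low counts (Ftl1, Id1, Id2 and Uap1l1) and 1 with only the 8 libraries compared (Id1). Leaving out 1 library gave 0 to 4 calls, with 4 without blebbistatin replicate 1 (Id1, Id2, Rhob and Sdc4). In the 8-library fit, added after seeing the data, leaving out 1 library gave 0 to 31 calls, with 31 without control replicate 4 and 2 without dextran replicate 1. Genes at an unadjusted p under 0.05 numbered 365 higher (224 to 723 over the alternatives) and 158 lower (99 to 594). For the difference between granulosa cells and oocytes the count of 0 became 243 with DESeq2 and ran from 0 to 91 with 1 library left out, with 91 without oocyte control replicate 4. Of the 40 genes whose log2 change was followed, 37 kept their sign under every alternative run. The exceptions, by leaving out 1 library, were Foxl2 (−0.32 to 0.025), Gja1 (−0.023 to 0.10) and Piezo1 (−0.68 to 0.21). Of 38 list medians, 24 kept their sign. The median of the SMAD targets, 0.47, reached 0.71. Whether the replicate numbers pair the libraries is not known. With the replicate as a block edgeR called 0 genes in the 12-library fit, the 8-library fit and the test between cell types. Why these counts differ was not tested.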
